A study of Ovis aries with 18 samples.

Results

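SMOC2 (ENSOARG00000005022), ERBB3 (ENSOARG00000010448) and GFRA3 (ENSOARG00000016086) are 3 genes that take part in signalling by secreted factors. They were followed in the testis RNA of 18 male Santa Inês lambs, as 3 of the 29589 gene IDs in the count files. They were picked by name from the genes that the study listed as differing between maternal diets. The difference between diets in these same lambs therefore chose them, and it is described here without a test. The count files give IDs only, and each symbol was paired with its ID by reading the labelled points of a plot of the study by eye and finding the nearest ID in its gene list, so the names rest on that reading. The study's test of each gene used its spread among lambs of the same diet, so that spread is described as well. It did not use how the 3 genes vary with each other and with ADAM11 (ENSOARG00000008974), a gene with a lower mean in gossypol lambs. ADAM11 was taken as an inverse marker with earlier results of these data known, so its relation to the 3 genes is not independent of that choice.

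The control group comprised 9 lambs of ewes supplemented with a diet based on corn and soybean, and the gossypol group 9 lambs of ewes supplemented with cottonseed, which is rich in the phenolic compound gossypol. Ewes of both groups had hay and pasture and received their diet from conception until 60 days after birth. All lambs had free access to the same hay and concentrate, and the diets were given to the dams. The left testicle was taken at 60 days of age, before puberty, and gave 1 poly-A library per lamb. Control libraries held 14468612 to 22334428 counts (median 19271048) and gossypol libraries 15240624 to 20660132 (median 19037075). Libraries of the same diet all differed beyond sampling noise, the closest being those of lambs H25 and H35 (chi-square over degrees of freedom, 10.9). FATE1, a gene named for its expression in fetal and adult testis, had between 347 and 29400 counts in every lamb. It is itself among the genes with a lower mean in gossypol lambs (87.5 CPM, against 528 CPM in control lambs). A list of cell type markers fixed for this report could not be paired with gene IDs and was not analysed here.

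SMOC2 is a secreted, calcium-binding protein of the SPARC family that sits in the matrix around cells and modulates how they respond to growth factors. ERBB3 is the receptor for neuregulins; its own kinase is weak, and it signals mainly by pairing with ERBB2. GFRA3 is the membrane-anchored co-receptor for artemin, a ligand of the GDNF family, and passes the signal on through the receptor RET. In the testis, growth factors from somatic cells regulate the spermatogonia, and GDNF acting through the related co-receptor GFRA1 is the best known example. ERBB3 and GFRA3 are also known from peripheral nerve, in Schwann cells and in sensory neurons, respectively. ADAM11 belongs to the family of membrane-bound disintegrin and metalloprotease proteins. In whole testis, fewer cells of a type and less RNA per cell cannot be told apart.

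Expression is given as CPM, the count relative to the library total after TMM scaling, which adjusts for differences in library composition. All 3 genes passed the filter on low counts and are among the 18640 tested IDs. SMOC2, the matrix protein, was lowest in control lamb H37 with 0.204 CPM, had a control median of 1.1 CPM and was highest in control lamb H44 with 6.21 CPM. In gossypol lambs SMOC2 ran from 1.86 CPM in H10, over a median of 7.32 CPM, to 48.2 CPM in H41. The diets overlapped, since 5 of 9 gossypol lambs exceeded every control lamb and 7 of 9 control lambs lay below the lowest gossypol lamb. Most of the upper range came from 3 gossypol lambs, H47, H08 and H41, with 14.7, 26.5 and 48.2 CPM. The fitted log2 fold change of SMOC2, gossypol against control, was 2.93 (standard error 0.602). The lowest value rests on 4 counts, for which the exact Poisson 95% interval of 1.09 to 10.2 counts covers counting error only.

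ERBB3, the neuregulin receptor, ran in control lambs from 1.66 CPM in H20, over a median of 3.05 CPM, to 7.33 CPM in H44. In gossypol lambs it ran from 2.15 CPM in H01, over a median of 10.5 CPM, to 20.2 CPM in H08. The gossypol lamb H01 stood within the control range and below 5 of the 9 control lambs, whereas 7 gossypol lambs lay above every control lamb. The log2 fold change was 1.76 (standard error 0.383). In both diets ERBB3 varied several-fold, 4.42-fold between the lowest and the highest control lamb and 9.40-fold among gossypol lambs.

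GFRA3, the artemin co-receptor, was the least variable of the 3 genes. Control lambs ran from 1.07 CPM in H37, over a median of 1.46 CPM, to 3.44 CPM in H44. Gossypol lambs ran from 2.88 CPM in H12, over a median of 4.27 CPM, to 5.45 CPM in H25. Apart from H44, all control lambs lay below every gossypol lamb. The log2 fold change was 1.17 (standard error 0.219). Relative to the mean, the SD of GFRA3 was 40.7% in control and 19.9% in gossypol lambs (n = 9 each). The same measure was 103% and 111% for SMOC2 and 61.2% and 51.5% for ERBB3. GFRA3 rests on few reads, between 21 and 101 counts per lamb, so part of its spread is counting error.

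**Figure D1:**
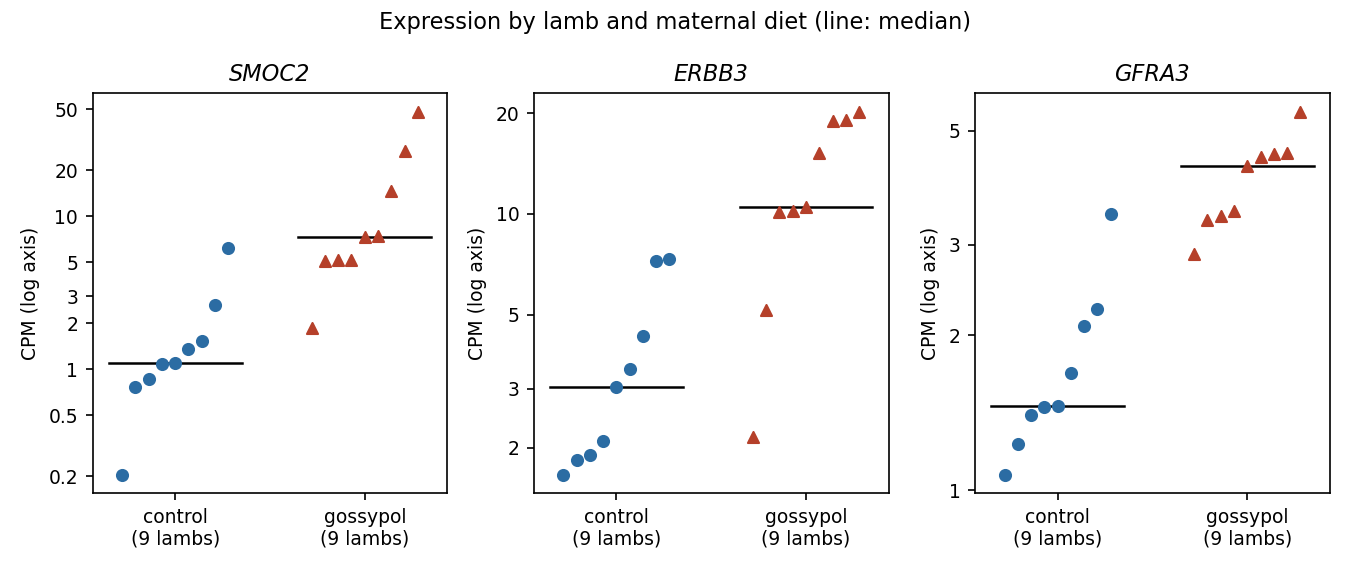
Expression of SMOC2, ERBB3 and GFRA3 in CPM on a log axis, with 1 point per lamb, control lambs as circles and gossypol lambs as triangles, sorted within each diet, and a line at the median. In each gene the gossypol median (7.32, 10.5 and 4.27 CPM) lies above every control lamb, and the lowest gossypol lambs overlap with the highest control lambs.

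Across all 18640 tested IDs, edgeR's quasi-likelihood test called 0 (0.0%) between diets at an FDR of 5%, and 4327 IDs (23.2%) had an unadjusted p under 0.05, of which 2197 (11.8% of all tested) were higher in gossypol lambs. At an FDR of 10% the same fit called 332 IDs. At 5% the DESeq2 Wald test called 882 IDs and edgeR's exact test 645. Over single omissions of a lamb the quasi-likelihood count ran from 0 to 1271, the highest without H44. At least 5 gossypol lambs above all control lambs, as in SMOC2, were seen in 4.71% of tested IDs. At least 6, as in GFRA3, were seen in 1.58% and at least 7, as in ERBB3, in 0.392%. Since the 3 genes were picked for this contrast, these shares describe where they stand and are no test. Without a single lamb the log2 fold change ran from 2.37 to 3.48 in SMOC2, from 1.65 to 1.95 in ERBB3 and from 1.1 to 1.34 in GFRA3.

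The same control lamb, H44, had the highest SMOC2, ERBB3 and GFRA3 and the lowest ADAM11 of its diet. Control lamb H37 had the lowest SMOC2 and GFRA3. In gossypol lambs the 3 genes were led by different animals, SMOC2 by H41, ERBB3 by H08 and GFRA3 by H25. Their lowest values also fell in different animals, H10, H01 and H12. Gossypol lambs H12 and H48 had the same counts in SMOC2 (150 each) and in ERBB3 (207 each), but 59 and 69 counts in GFRA3 and 2117 and 3405 in ADAM11, so they are separate libraries.

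On the log2 scale ADAM11 varied more than any of the 3 genes among control lambs, with an SD of 1.97 against 1.18 for SMOC2, 0.801 for ERBB3 and 0.487 for GFRA3 (n = 9). It ran from 33.6 CPM in H44, over a median of 515 CPM, to 1539 CPM in H29. In gossypol lambs it ran from 16.6 CPM in H41, over a median of 39 CPM, to 214 CPM in H01. There the log2 SD of ADAM11 was 1.34, below that of SMOC2 (1.4) and above those of ERBB3 (1.04) and GFRA3 (0.282). The control lambs H44, H39, H31 and H32 lay at 33.6 to 151 CPM, inside the gossypol range, and the other 5 control lambs at 515 CPM or more. On the log2 scale this largest inner gap covered 0.321 of the control range, under the limit of 0.5 at which lambs were treated as separate clusters.

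ERBB3 was inversely related to ADAM11 among control lambs, and r had the same sign in gossypol lambs. ADAM11 was chosen as an inverse marker with earlier results of these data known. The p-values with ADAM11 therefore describe these lambs and are no independent test of an inverse relation. The 4 control lambs with the lowest ADAM11 had the 4 highest ERBB3 values of their diet, 7.33 CPM in H44, 7.23 CPM in H39, 4.33 CPM in H31 and 3.43 CPM in H32. Among gossypol lambs, H08 combined 16.8 CPM of ADAM11 with the highest ERBB3, and H01 combined the highest ADAM11 with the lowest ERBB3. Gossypol lamb H41 departed from this order, with the lowest ADAM11 of all lambs but an ERBB3 of 10.5 CPM, the median of its diet. On log2 CPM, with a prior count of 2, Pearson's r between ERBB3 and ADAM11 was -0.86 in control lambs (2-sided exact permutation test, n = 9, p = 0.00479, or 0.0201 after Benjamini-Hochberg adjustment over the 12 correlations of the 3 genes with each other and with ADAM11 in each diet). In gossypol lambs it was -0.68 (exact permutation p = 0.0395, adjusted 0.0948, n = 9). Spearman's rho was -0.72 in each diet (exact permutation p = 0.0369, adjusted 0.111). When the 2 lambs farthest from the median of ADAM11 were left out, r was -0.68 in control and -0.45 in gossypol lambs (exact permutation p = 0.114 and 0.315, n = 7 each). The call in control lambs was also lost without H22 or without H44, with r between -0.93 and -0.79 over all single omissions.

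GFRA3 was inversely related to ADAM11 among control lambs as well, with the same limit from the choice of ADAM11. Pearson's r was -0.79 in control lambs (exact permutation p = 0.00838, adjusted 0.0251, n = 9) and -0.65 in gossypol lambs (exact permutation p = 0.0633, adjusted 0.127, n = 9). Spearman's rho was -0.65 and -0.62 (exact permutation p = 0.0666 and 0.0857, adjusted 0.160 and 0.171). With the 2 lambs farthest in ADAM11 left out, r was -0.46 and -0.54 (exact permutation p = 0.303 and 0.216, n = 7 each). The control value lost its call without any 1 of H20, H22, H31, H39 and H44, with r between -0.86 and -0.61 over all single omissions. For SMOC2, r with ADAM11 was -0.49 in control and -0.57 in gossypol lambs, and neither passed (exact permutation p = 0.185 and 0.108, adjusted 0.247 and 0.185, n = 9 each). Its rho was -0.55 and -0.57 (exact permutation p = 0.133 and 0.121, adjusted 0.197 each). Without the 2 lambs farthest in ADAM11 the SMOC2 value in control lambs was 0.07 (exact permutation p = 0.878, n = 7). It was -0.08 without H44 alone and -0.49 without H39 alone, so it rested mainly on H44. In gossypol lambs the value without the 2 farthest was -0.70 (exact permutation p = 0.0744, n = 7).

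**Figure D2:**
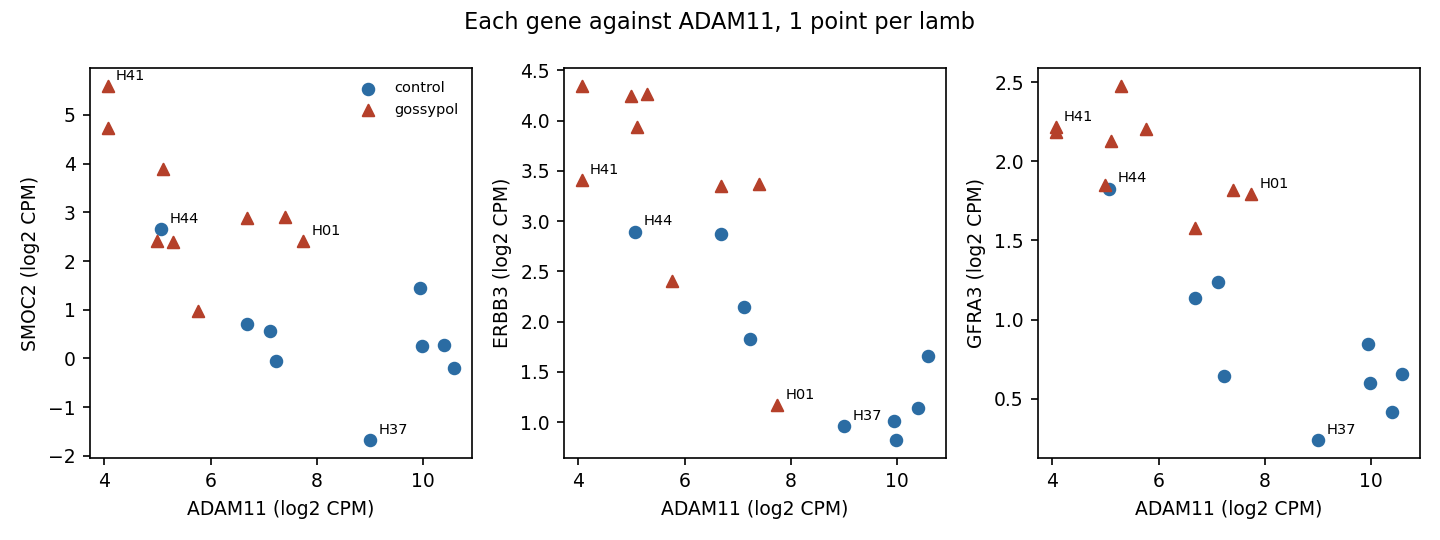
SMOC2, ERBB3 and GFRA3 against ADAM11, both in log2 CPM, with 1 point per lamb, control lambs as circles and gossypol lambs as triangles, and lambs H44, H37, H41 and H01 named. All r are negative (-0.49, -0.86 and -0.79 in control and -0.57, -0.68 and -0.65 in gossypol lambs), and control lamb H44 lies within the gossypol range on both axes of each panel.

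Of the 12 correlations within diets, 4 passed after adjustment, all of them in control lambs and 2 of them with ADAM11. By ranks, and with the 2 farthest lambs left out, 0 of 12 passed, while 4 and 0 had an unadjusted exact permutation p under 0.05. Among the r of other IDs with ADAM11 these values were not rare. An r with ADAM11 as negative as that of SMOC2, ERBB3 and GFRA3 was found in 31.1%, 6.35% and 11.7% of 17920 IDs in control lambs and in 10.3%, 5.71% and 6.81% in gossypol lambs. An r with ADAM11 at least as large, in either direction, as the smallest of the 4 calls was found in 22.9% of IDs in control and 4.84% in gossypol lambs. With diet means removed (below), few IDs had an r with GFRA3 or ERBB3 as negative as that of ADAM11 (0.173% and 0.982%).

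With the mean of each diet subtracted, all 18 lambs could be used at once without the difference between diets. Because ADAM11 was chosen as an inverse marker with earlier results known, its p-values here are no independent test either. ERBB3 and GFRA3 then had r of -0.74 and -0.75 with ADAM11 (2-sided permutation test within diets, 100000 permutations, p = 2.90e-04 and 9.80e-04, or 0.00174 and 0.00294 after Benjamini-Hochberg adjustment over 6 pairs). Spearman's rho was -0.77 and -0.71 (permutation p = 4.90e-04 and 0.00261, adjusted 0.00294 and 0.00783). Leaving out H29 and H44, the 2 lambs farthest in ADAM11, gave r of -0.75 and -0.64 (permutation p = 8.50e-04 and 0.0112, n = 16). Both relations passed in all 18 fits that left out 1 lamb, but on unlogged CPM that of GFRA3 did not pass (r = -0.45, permutation, adjusted p = 0.102). On unlogged CPM that of ERBB3 passed with a weaker r of -0.30 (permutation, adjusted p = 0.0286). The SMOC2 value was -0.51 (permutation p = 0.0308, adjusted 0.0369), but its rho of -0.49 did not pass after adjustment (permutation p = 0.0358, adjusted 0.0536). Without H29 and H44 its r was -0.35 (permutation p = 0.188, n = 16), and its call was also lost without any 1 of H08, H29, H41 and H44.

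Seen from ADAM11, a relation of this size was common in these libraries. Of 17920 other IDs with distinct counts, 5.16% had a diet-centred r with ADAM11 at or below that of GFRA3, 5.81% at or below that of ERBB3 and 19.4% at or below that of SMOC2. Seen from the 3 genes it was less common. Of 17921 IDs, 0.173% had a diet-centred r with GFRA3 at or below that of ADAM11. The share was 0.982% for ERBB3 and 6.93% for SMOC2. ADAM11 lay close to the leading component of variation among lambs of the same diet, which took 32% of the diet-centred variance over 18640 IDs and had r = 0.88 with ADAM11. GFRA3 had r = -0.68 with this component, ERBB3 -0.45 and SMOC2 -0.42. ERBB3 was more strongly related to the second component (18% of the variance, r = -0.61) than to the first, and SMOC2 to the third (11.4% of the variance, r = -0.53).

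**Figure D3:**
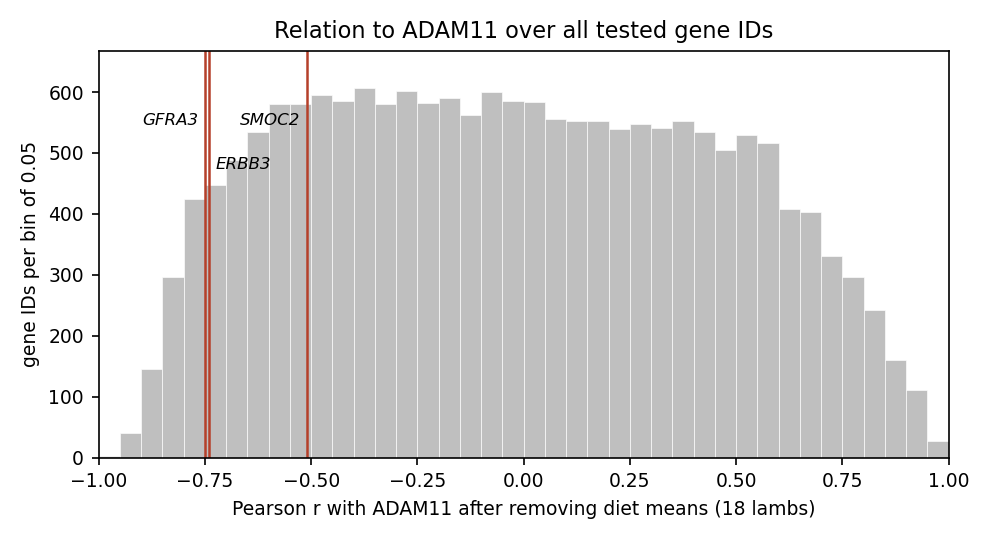
Number of tested gene IDs by their Pearson r with ADAM11 over 18 lambs after removal of diet means, in bins of 0.05, with vertical lines at SMOC2, ERBB3 and GFRA3. The lines stand at -0.51, -0.74 and -0.75, and the histogram shows that many other IDs lie at or beyond them (19.4%, 5.81% and 5.16%).

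Lambs of different diets but like ADAM11, chosen after their values were seen, can be set side by side. At about the same ADAM11 as control lamb H44 (33.6 CPM) were gossypol lambs H35 (31.6 CPM) and H47 (34.2 CPM). ERBB3 was 7.33 CPM in H44, 18.9 CPM in H35 and 15.2 CPM in H47. GFRA3 was 3.44, 3.49 and 4.27 CPM in the same order and SMOC2 6.21, 5.18 and 14.7 CPM. ERBB3 was thus lower in H44 than in either gossypol lamb. SMOC2 and GFRA3 of H44 were close to those of H35 but below those of H47.

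At higher ADAM11, control lamb H39 (102 CPM) can be set beside gossypol lamb H12 (103 CPM). SMOC2 was 1.53 CPM in H39 and 7.32 CPM in H12. GFRA3 was 2.09 and 2.88 CPM, and ERBB3 7.23 and 10.1 CPM. All 3 genes were higher in the gossypol lamb of this pair. This did not hold for ERBB3 in every lamb of nearby ADAM11. Control lambs H31 and H32 (139 and 151 CPM of ADAM11) had 4.33 and 3.43 CPM of ERBB3. Gossypol lamb H48 (168 CPM of ADAM11) had more, 10.2 CPM, and gossypol lamb H01 (214 CPM of ADAM11) less, 2.15 CPM. SMOC2 and GFRA3 were higher in H48 and H01 than in H31 and H32.

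With the log2 CPM of ADAM11 as a covariate in the edgeR fit, the log2 fold change was 1.56 (standard error 0.632) for SMOC2, 0.770 (standard error 0.363) for ERBB3 and 0.692 (standard error 0.219) for GFRA3. Each is smaller than without the covariate (2.93, 1.76 and 1.17) and has the same sign. ADAM11 itself differed between diets in these lambs, so the covariate and the diet overlap, and the remaining difference is a description of this fit.

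Among control lambs GFRA3 varied together with each of the other genes. SMOC2 and GFRA3, the matrix protein and the co-receptor, had r = 0.85 (exact permutation p = 0.00427, adjusted 0.0201, n = 9), and ERBB3 and GFRA3 had r = 0.83 (exact permutation p = 0.00503, adjusted 0.0201, n = 9). The value for SMOC2 and ERBB3 was 0.54 (exact permutation p = 0.131, adjusted 0.196, n = 9). Spearman's rho was 0.77, 0.80 and 0.53 (exact permutation p = 0.0214, 0.0138 and 0.148, adjusted 0.111, 0.111 and 0.197), so no pair passed by ranks after adjustment. Both calls were lost without H22, without H37 or without H44. After leaving out the 2 lambs farthest on the x axis the 3 values were 0.75, 0.73 and 0.11 (exact permutation p = 0.0611, 0.0714 and 0.808, n = 7 each).

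Few of the other tested IDs were as close to SMOC2 in control lambs as GFRA3. Of 17920 IDs, 0.195% had an r with SMOC2 as high as GFRA3, and 0.552% had an r with GFRA3 as high as SMOC2. For ERBB3 and GFRA3 these shares were 3.73% and 1.05%, and for SMOC2 and ERBB3 10.1% and 24.3%. The shares describe these 9 lambs, which include H44 at the upper end of every gene.

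In gossypol lambs the same pairs had lower r, and none passed. SMOC2 and ERBB3 had r = 0.39, ERBB3 and GFRA3 0.35, and SMOC2 and GFRA3 0.17 (exact permutation p = 0.298, 0.368 and 0.661, adjusted 0.358, 0.402 and 0.661, n = 9 each). Their rho was 0.37, 0.50 and 0.00 (exact permutation p = 0.336, 0.178 and 1, adjusted 0.367, 0.213 and 1). Without the 2 lambs farthest on the x axis the 3 values were -0.17, 0.30 and 0.41 (exact permutation p = 0.680, 0.521 and 0.346, n = 7 each). Whether the correlations differed between diets was tested on the difference of Fisher's z, gossypol minus control, by an exact permutation over all assignments of the lambs to diets. By this exact permutation the difference was -1.10 for SMOC2 and GFRA3 (p = 0.148, adjusted 0.444 over 6 pairs), -0.81 for ERBB3 and GFRA3 (p = 0.0903, adjusted 0.444) and -0.20 for SMOC2 and ERBB3 (p = 0.692, adjusted 0.830). For the pairs with ADAM11 it was -0.10 for SMOC2, 0.46 for ERBB3 and 0.31 for GFRA3 (exact permutation p = 0.836, 0.355 and 0.497). None of the 6 differences passed, which does not show that the diets were alike. In gossypol lambs 38.8% of other IDs had an r with SMOC2 as high as GFRA3, and 31.3% an r with GFRA3 as high as SMOC2. The shares were 25.1% and 16.9% for ERBB3 and GFRA3 and 21.3% and 22% for SMOC2 and ERBB3.

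**Figure D4:**
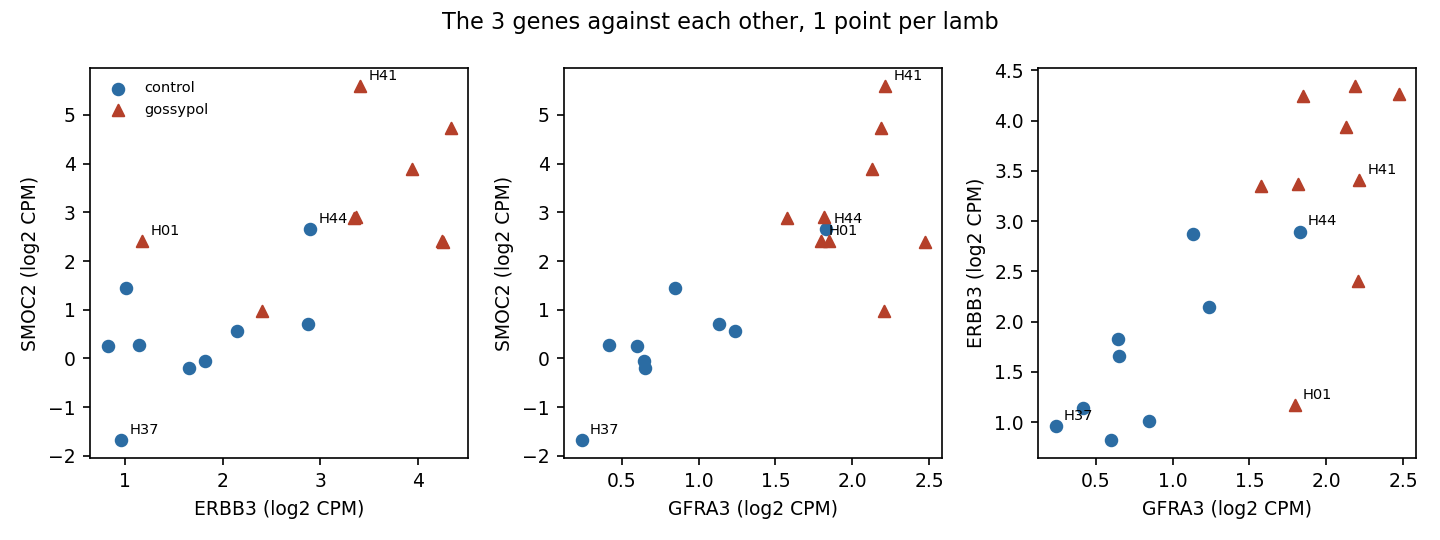
SMOC2, ERBB3 and GFRA3 against each other in log2 CPM, with 1 point per lamb, control lambs as circles and gossypol lambs as triangles, and lambs H44, H37, H41 and H01 named. Where GFRA3 is on the x axis, control lambs rise from the lower left to H44 (r of 0.85 with SMOC2 and 0.83 with ERBB3), and gossypol lambs lie higher with less order (r of 0.17 and 0.35).

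Over both diets with diet means removed, r was 0.58 for ERBB3 and GFRA3 (permutation p = 0.00827, adjusted 0.0165, n = 18), 0.54 for SMOC2 and GFRA3 (permutation p = 0.0189, adjusted 0.0283) and 0.45 for SMOC2 and ERBB3 (permutation p = 0.0779, adjusted 0.0779). By ranks the first pair passed, with rho = 0.66 (permutation p = 0.00470, adjusted 0.00940). The other pairs did not, with rho of 0.39 and 0.47 (permutation p = 0.108 and 0.0525, adjusted 0.108 and 0.0630). No pair passed without the 2 lambs farthest on the x axis, with r of 0.44, 0.49 and 0.36 in the same order (permutation p = 0.0762, 0.0410 and 0.167, adjusted 0.114, 0.0821 and 0.188, n = 16). The call for ERBB3 and GFRA3 was lost without H44, and that for SMOC2 and GFRA3 without H37 or without H44. ADAM11 was also removed by regression within each diet, a step added after the data were seen. The control call for SMOC2 and GFRA3 then stayed, with r = 0.87 (exact permutation of the residuals, adjusted p = 0.0122, n = 9), while r in gossypol lambs was -0.31. For ERBB3 and GFRA3, r was 0.47 in control and -0.16 in gossypol lambs, and the control call was lost (permutation of the residuals, adjusted p = 0.580).

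Some library measures moved with some of these genes. The share of counts on assembled loci outside the annotation ran from 1.96% to 2.76% in control lambs and was highest in H44. It had r = 0.79 with SMOC2, 0.77 with ERBB3, 0.83 with GFRA3 and -0.83 with ADAM11 over the 9 control lambs. In gossypol lambs this share was highest in H41, at 3.25%, the lamb with the highest SMOC2, and the values were 0.62, -0.16, 0.16 and -0.44. The TMM factor was highest in H44 as well, at 1.14. The total count had r between -0.31 and 0.35 with the 4 genes in control lambs and between -0.39 (ERBB3) and 0.53 (ADAM11) in gossypol lambs. In gossypol lambs ERBB3 had r = 0.70 with the TMM factor and -0.71 with the share of the 10 most counted IDs, sizes like its r of -0.68 with ADAM11 there, whereas GFRA3 had r between -0.10 and 0.16 with all 4 measures. The part of the shares of unannotated loci and of the 10 most counted IDs in the correlations was not tested.

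For comparison, within-diet r was computed with 15 further genes that the study listed on these lambs, 4 with a higher and 11 with a lower mean in gossypol lambs. The genes were picked for their difference between diets, so these values are given as measures of likeness without a test. CDH23, a cadherin of cell adhesion known from inner ear hair cells, was closest to ERBB3, with r = 0.94 in control and 0.84 in gossypol lambs. Over all 18 lambs with diet means removed its r of 0.88 ranked 6 among 17921 IDs. The corresponding r of CDH23 was 0.65 with SMOC2 and 0.63 with GFRA3, which ranked 286 and 541. CACNG4, an auxiliary subunit of voltage-gated calcium channels, had r = 0.80 and 0.60 with ERBB3. SLC47A1, an exporter of organic cations and drugs, had r = 0.73 with SMOC2, 0.65 with ERBB3 and 0.78 with GFRA3 in control lambs, and 0.35, -0.01 and 0.29 in gossypol lambs. OC90, a protein of the otoconia of the inner ear, had r between -0.17 and 0.29 with the 3 genes, and its pairing with an ID is less certain than the others.

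ERBB3 had negative r with all 11 genes of lower mean in both diets, with a median of -0.81 in control and -0.45 in gossypol lambs. GFRA3 had negative r with 11 of 11 in control lambs (median -0.64) and with 9 of 11 in gossypol lambs (median -0.55). Over all lambs with diet means removed, its most negative partner among them was LRRC8B, a subunit of volume-regulated anion channels, with r = -0.80 in control and -0.82 in gossypol lambs. LRRC8B ranked 4 from the lowest among 17921 IDs for GFRA3. SMOC2 was less uniform, with 10 of 11 negative in control lambs (median -0.32) and 8 of 11 in gossypol lambs (median -0.14). In gossypol lambs its values ran from -0.75 with CYP4F21, a cytochrome P450 whose ID shares all counts with 3 other IDs, to 0.58 with MAGEA10, an antigen of the MAGE family. In control lambs all 11 genes had positive r with ADAM11, from 0.74 to 0.98, so there they do not give 11 separate observations. In gossypol lambs VSIG1 and MAGEA10 had r of -0.16 and -0.45 with ADAM11, and the other 9 were positive.

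**Figure D5:**
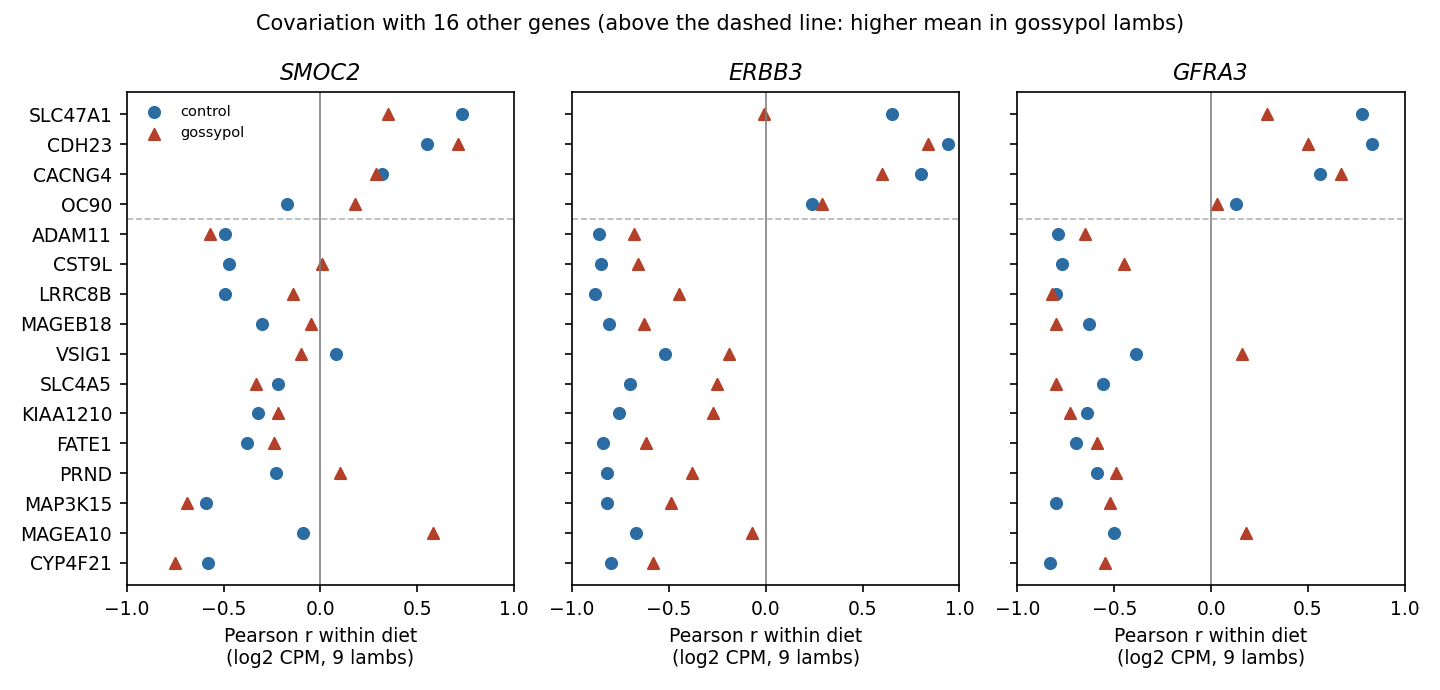
Pearson r of SMOC2, ERBB3 and GFRA3 with 16 other genes on log2 CPM within each diet, control lambs as circles and gossypol lambs as triangles (9 lambs each). The dashed line separates the 4 genes with a higher mean in gossypol lambs from ADAM11 and the 11 genes with a lower mean, where all ERBB3 points lie below 0 and the SMOC2 points spread from -0.75 to 0.58.

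Over all IDs, fewer were close to any of the 3 genes than to ADAM11. A diet-centred r of 0.8 or more was reached by 7 IDs for SMOC2, 67 for ERBB3 and 12 for GFRA3, but by 542 for ADAM11. At -0.8 or less were 8, 48, 4 and 485 IDs. The ID most like ERBB3 was ENSOARG00000017817 (r = 0.90) and the least like it ENSOARG00000012707 (r = -0.91), both with the same sign in each diet. The ID most like SMOC2 was ENSOARG00000012938 (r = 0.85) and the least like it ENSOARG00000014849 (r = -0.84). None of these IDs could be paired with a symbol. None of the 3 genes was among the 5 IDs nearest to another of them.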

How the data were processed

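Testis RNA of 18 lambs was analysed from raw counts. Per the study's methods, the authors trimmed reads with Trim Galore 0.4.4, aligned them with TopHat2 2.1.1 to Oar_v3.1, merged assemblies of Cufflinks 2.2.1 with the annotation, counted reads with htseq and deposited the counts per gene ID, unnormalized. The strand setting is not given in the sources used here, so overlapping and antisense genes are uncertain. Diets were taken from the sample labels. No replicate number is shared between diets.

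Counts were fitted in R 4.3.3 with edgeR 4.0.16 (filterByExpr, minimum count 10 and minimum total 15, TMM, quasi-likelihood test, Benjamini-Hochberg adjustment over 18640 IDs). CPM were computed with these factors, and log2 CPM with a prior count of 2. The alternatives were RLE scaling, other filters, edgeR's exact test, DESeq2 1.42.0, an ADAM11 covariate, prior counts of 0.5 and 5, unlogged CPM, ranks, regression on library totals and omission of lambs. Correlations used Python 3.11.15. Procedures were tested on simulated data. Omission of H44 with H37 or of H41 with H01, and regression on ADAM11, were chosen after seeing the data. The 3 genes, ADAM11, the comparison genes and the lists were chosen with earlier results of these data known.

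The named genes are the 3 members, ADAM11, the 15 comparison genes and the nearest IDs. Nearest IDs without a symbol are printed here only for SMOC2 and ERBB3. The files pair no symbols with IDs, and 0 of the 29589 IDs matched the RefSeq gene table (ARS-UI_Ramb_v3.0). Symbols were read by eye from labelled points of the study and matched to its gene list. The lists fixed for ERBB, GDNF and SPARC family members and for cell type markers (88 symbols) therefore could not be measured and were not analysed here. Sequences and positions were not used here. Beyond this pairing of names, which rests on the fold changes and p-values of the authors' own diet comparison, values of that comparison were not used. Exact permutation p-values of untied ranks cannot fall below 5.51e-06 for 9 lambs. For Pearson's r the floor can be lower, since no mirrored order need reach the same size. The p-values of 100000 permutations over 18 lambs cannot fall below 1e-05.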

Additional observations from a re-analysis of the deposited data

Results flagged for a closer look

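By Dixon's criterion, applied to 14 groups of 9 lambs (SMOC2, ERBB3, GFRA3, ADAM11 and 3 library measures in each diet), 2 lambs stood apart from the others of their diet, and chance flags about 1 in 20 groups. The 10 most counted IDs took 4.62% of the counts of control lamb H44, and the gap to the next lamb was 0.498 of the range, just past the critical value. Assembled loci outside the annotation took 3.25% of the counts of gossypol lamb H41, with a gap of 0.636 of the range. H44 had the highest SMOC2, ERBB3 and GFRA3 of the control lambs, and H41 the highest SMOC2 of all lambs. None of the 8 groups of SMOC2, ERBB3, GFRA3 and ADAM11 values held such a lamb.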

How the results depend on the processing

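No paired analysis was possible because the diets share no replicate numbers. Among the alternative values, 552 kept their direction and their side of the threshold or moved by less than the replicate spread, 46 lost a call, 4 gained one, 17 changed direction and 10 moved further. RLE scaling changed no call or direction of the ID count, the fold changes and the correlations. Both other filters, run for the ID count and the 3 fold changes, and prior counts of 0.5 and 5, run for the correlations, changed none of those.

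Between diets, 0 IDs passed an FDR of 5% in edgeR's quasi-likelihood test (332 at an FDR of 10% and 4327 at an unadjusted p under 0.05), 645 in edgeR's exact test and 882 in DESeq2. Single omissions gave 0 to 1271, with 1271 without H44, 492 without H48, 106 without H32, 66 without H39 and 19 without H01. With ADAM11 as a covariate the log2 fold changes of SMOC2, ERBB3 and GFRA3 were 1.56, 0.77 and 0.692.

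Within control lambs, the correlations of SMOC2 with GFRA3, ERBB3 with GFRA3, ERBB3 with ADAM11 and GFRA3 with ADAM11 lost their calls on unlogged CPM (0.90, 0.83, -0.68 and -0.59), by ranks (0.77, 0.80, -0.72 and -0.65), without the 2 farthest lambs (0.75, 0.73, -0.68 and -0.46) and, in a setting added after the data were seen, without H44 and H37 (0.47, 0.72, -0.82 and -0.72). They ran over single omissions from 0.69 to 0.90, 0.75 to 0.87, -0.93 to -0.79 and -0.86 to -0.61. The omissions also leave fewer lambs, which raises p. SMOC2 with ERBB3 reversed to -0.04 without H44 and H37, and to -0.17 in gossypol lambs without the 2 farthest, while SMOC2 with ADAM11 in control lambs reversed to 0.07. With library totals only, GFRA3 with ADAM11 in gossypol lambs passed (-0.78, exact permutation, adjusted p = 0.0401). In 2 further settings added after the data were seen, SMOC2 with GFRA3 in gossypol lambs was -0.31 and ERBB3 with GFRA3 0.47 in control and -0.16 in gossypol lambs after regression on ADAM11, where SMOC2 with GFRA3 in control lambs passed at 0.87 (permutation of the residuals, approximate, adjusted p = 0.0122 over 6 correlations), and SMOC2 with GFRA3 in gossypol lambs was -0.04 without H41 and H01.

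With diet means removed, SMOC2 with GFRA3, ERBB3 with GFRA3, SMOC2 with ADAM11 and GFRA3 with ADAM11 lost their calls on unlogged CPM (0.28, 0.46, -0.10 and -0.45). By ranks SMOC2 with GFRA3 (0.39) and with ADAM11 (-0.49) lost theirs, and without the 2 farthest lambs SMOC2 with GFRA3 (0.49), ERBB3 with GFRA3 (0.44) and SMOC2 with ADAM11 (-0.35). Over single omissions these ran from 0.36 to 0.67 for SMOC2 with GFRA3, from 0.50 to 0.64 for ERBB3 with GFRA3 and from -0.58 to -0.35 for SMOC2 with ADAM11. SMOC2 with ERBB3 ran from 0.35 to 0.52, passing without H06 and without H41, and passed at 0.50 after regression on the library total. ERBB3 with ADAM11 kept its call in all these settings, at its weakest with r = -0.30 on unlogged CPM (permutation, adjusted p = 0.0286). The pooled unlogged values join diets of unlike raw spread. Within control and gossypol lambs the unlogged r with ADAM11 was -0.68 and -0.69 for ERBB3. It was -0.59 and -0.62 for GFRA3 and -0.36 and -0.45 for SMOC2.

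The sign of the difference between diets (Fisher's z) turned for ERBB3 with ADAM11 on unlogged CPM (-0.01) and was 0.00 by ranks. It turned for GFRA3 with ADAM11 on unlogged CPM (-0.05) and without the 2 farthest lambs (-0.01), and for SMOC2 with ERBB3 without them (0.15). Over single omissions it ran from -0.57 to 0.12 for SMOC2 with ADAM11, from -0.50 to 0.15 for SMOC2 with ERBB3 and from -0.06 to 0.53 for GFRA3 with ADAM11. Beyond the alternatives' own construction, the cause was not tested. With 4 to 139 counts of SMOC2 and 21 to 77 of GFRA3 in control lambs, counting error is part of their spread.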
